A study of Mus musculus with 8 samples.

Results

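The 40 genes here encode the kinase complex mTORC1, proteins that activate it or carry its signal, and proteins that restrain it or its output. They were chosen by name from a list of pathway genes, 23 activators (Mtor to Pik3r1) and 17 inhibitors (Tsc1 to Stk11), and all 40 were found among the 54446 genes counted in colon cells and the 55341 counted in cultured cells. RNA was sequenced from 8 libraries of mouse CD4+ T cells, to ask how loss of the nuclear receptor RORα in T cells bears on mTORC1 in colitis. The colon groups were CD4+ T cells taken from the colon of Tcrbd-/- recipients, which lack T cells of their own, 6 weeks after they received naive CD4+ T cells from Rora_fl/fl donors (control, 2 libraries) or Cd4_cre Rora_fl/fl donors (knockout, 2 libraries). The culture groups were Th17 cells grown from naive CD4+ T cells of the same 2 genotypes for 4 days on plate-bound anti-CD3 with anti-CD28, in TGF-β plus IL-6 (the TGF-β mix) or IL-6 plus IL-1β plus IL-23 (the IL-23 mix), with 1 control and 1 knockout library in each. All cells were restimulated for 2 hours with PMA plus ionomycin ahead of RNA extraction. Cd4_cre acts from the thymic stage onward in cells that express Cd4, so the deletion preceded transfer and culture. Neither the animals' ages nor whether the 2 libraries of a colon group came from separate mice is stated, so that p-values here reflect library-to-library spread alone, part or all of which may be technical.

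mTORC1 is a kinase built on mTOR, with RAPTOR (Rptor) to recruit substrates and MLST8 to stabilise the kinase domain. Amino acids bring it to the lysosome through the Rag GTPases and their anchor Ragulator (Lamtor genes), growth factor and antigen receptor signals reach it through PI3K, PDK1 and AKT and the GTPase RHEB, and the TSC complex, GATOR1, sestrins, REDD1 (Ddit4) and AMPK hold it back. In T cells it is known for linking antigen and cytokine signals to protein synthesis and to effector programmes that include Th17 cells. The counts measure messenger RNA, not the activity of the kinase.

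RefSeq promoter windows of build GRCm38.p6, from 250 bases before to 50 bases after a transcript start, were matched by symbol for 35 of the 40 members (45 windows, since some genes have several starts). Rhebl1, Lamtor3, Rps6kb2, Deptor and Eif4ebp1 had none. The windows were searched on both strands for AGGTCA, the core bound by ROR receptors, and for CACGTG, the palindromic E-box core bound by MYC and by the lysosomal regulators TFEB and TFE3. AGGTCA occurred in 6.67% of the members' windows and in 16.3% of all 32851 windows in the table. It was found in Akt1, Lamtor5 and Pdpk1 and in no inhibitor. CACGTG occurred in 15.6% of the members' windows and in 7.15% of all windows, and was found in the activators Eif4e, Lamtor1, Lamtor4, Rheb, Rragb and Rragc and in the inhibitor Tbc1d7. The stretches below were picked from members that hold a match and carry results below, and are not all of these. They hold no annotated exon of GENCODE M21. Lamtor1 and Lamtor4 were lower in knockout colon cells and higher in the IL-23 mix, Tbc1d7 was higher in the IL-23 mix, and Akt1 was lower in knockout colon cells. Each runs over the 250 bases before the start, 5′ to 3′ on the gene's strand, with AGGTCA or CACGTG in capitals. The Lamtor1 stretch is chr7:101905587-101905836 on the plus strand, that of Lamtor4 is chr5:138255232-138255481 on the plus strand, that of Tbc1d7 is chr13:43171502-43171751 on the minus strand and that of Akt1 is chr12:112674885-112675134 on the minus strand.
Lamtor1: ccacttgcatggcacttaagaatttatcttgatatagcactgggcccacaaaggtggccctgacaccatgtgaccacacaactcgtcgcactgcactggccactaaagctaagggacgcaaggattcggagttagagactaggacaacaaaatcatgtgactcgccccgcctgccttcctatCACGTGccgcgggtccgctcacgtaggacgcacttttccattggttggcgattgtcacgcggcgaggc
Lamtor4: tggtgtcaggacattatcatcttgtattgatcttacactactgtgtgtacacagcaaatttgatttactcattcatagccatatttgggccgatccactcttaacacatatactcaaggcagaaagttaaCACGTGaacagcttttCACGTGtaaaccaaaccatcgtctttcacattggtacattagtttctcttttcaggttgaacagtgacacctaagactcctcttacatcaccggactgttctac
Tbc1d7: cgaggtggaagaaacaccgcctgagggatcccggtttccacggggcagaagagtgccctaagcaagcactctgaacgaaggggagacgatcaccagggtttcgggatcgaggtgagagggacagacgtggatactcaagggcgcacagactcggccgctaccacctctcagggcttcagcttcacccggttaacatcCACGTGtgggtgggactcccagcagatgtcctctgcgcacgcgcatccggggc
Akt1: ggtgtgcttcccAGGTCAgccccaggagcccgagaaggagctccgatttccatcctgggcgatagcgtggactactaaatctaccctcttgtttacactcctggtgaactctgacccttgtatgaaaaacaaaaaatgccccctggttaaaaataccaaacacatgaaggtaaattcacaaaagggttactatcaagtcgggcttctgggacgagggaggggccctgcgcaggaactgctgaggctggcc
The CACGTG of Lamtor1 began 68 bases before the start, those of Lamtor4 120 and 104 bases before, that of Tbc1d7 53 bases before, and the AGGTCA of Akt1 238 bases before. Rheb and Eif4e, which hold CACGTG too, were lower in the IL-23 mix. Rragc, with CACGTG, and Lamtor5, with AGGTCA, were higher in that mix. Rragb, with CACGTG, and Pdpk1, with AGGTCA, did not pass the test in any main comparison described below. A match says only that these letters are present.

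Library totals were 13176752 to 14967756 counts in colon and 15252700 to 15922696 in culture. Levels are CPM, counts per 1000000 counts of the library total scaled by the trimmed mean of M-values (TMM). Rora itself stood at 252 and 290 CPM in the colon control libraries and at 133 and 149 CPM in the knockout ones, a log2 difference of -0.94 ± 0.09 (SE, adjusted p = 2.4e-05). In culture it stood at 499 CPM in the control and 189 CPM in the knockout library in the TGF-β mix, and at 152 and 59.0 CPM in the IL-23 mix, a log2 difference over both mixes of -1.38 ± 0.07 (adjusted p = 4e-04). These counts cover the whole gene, including exons that the deletion may leave in place. T cell markers summed to 6710 to 11100 CPM in every library, with none of the 13 at 0.

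In control colon cells, the members were set side by side as CPM per kb of exon, which allows levels of different genes to be compared. Pik3cd, the catalytic PI3K subunit of leukocytes, had the highest mean level among activators at 117 CPM per kb, followed by the translation factor Eif4b (98.9) and Akt1 (93.0). Among inhibitors the highest was Stk11, encoding LKB1, the kinase that activates AMPK, at 68.9 CPM per kb, followed by Inpp5d, encoding the PIP3 phosphatase SHIP1 (47.0), and Eif4ebp2, encoding a repressor of the cap-binding protein eIF4E (42.4). Mtor stood at 4.70 and Rptor at 7.31 CPM per kb. At the low end were Rragd (0.627), Rragb (0.534) and Deptor (0.0452), and Deptor had 1 to 17 counts in any colon library. The exons of 13 members are overlapped by another gene, by more than 10% of exon bases in Mlst8, Rhebl1, Lamtor1, Rps6kb2 and Nprl3. Since the strand setting is not given in the sources used here, reads from those neighbours cannot be told apart from the members' own.

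In colon cells, loss of Rora went with higher RNA of Sesn1, Rragd, Pik3r1 and Rps6kb1 and with lower RNA of Ddit4, Akt2, Lamtor1, Stk11, Inpp5d, Lamtor4, Akt1, Eif4ebp2, Nprl2 and Eif4b. Activators and inhibitors were found on both sides. Of 23 activators, 3 were higher, 5 lower and 15 did not pass, and of 17 inhibitors, 1 was higher, 5 lower and 11 did not pass. In all, 4 members (of 40) were higher against 19.6% of all 13101 genes tested, and 10 were lower against 19.9%. The share of members that passed, 35%, was not above the sum of those shares. The median log2 fold change was -0.023 over activators and -0.155 over inhibitors, beside 0.013 over all genes, and both were positive when libraries were scaled by their totals (0.169 and 0.038, beside 0.205). Passing means a Benjamini-Hochberg adjusted p under 0.05 over all genes tested, from the quasi-likelihood test of edgeR. In bulk RNA, fewer cells of a type and less RNA per cell cannot be told apart.

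**Figure D1:**
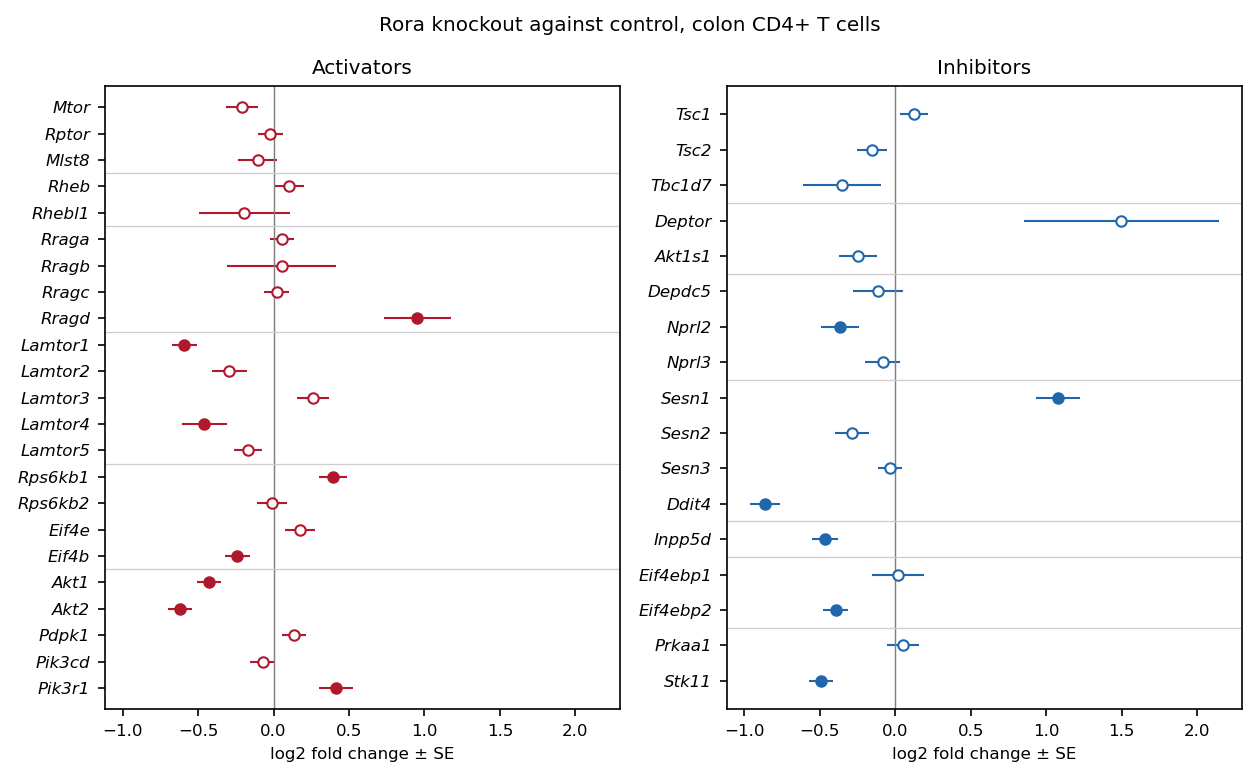
Log2 fold change of each of the 40 members in knockout against control colon CD4+ T cells (x axis, points with SE bars, 2 libraries per group), with activators in red and inhibitors in blue, ordered by role with lines between roles. Filled points passed an adjusted p of 0.05. Sesn1 at 1.08 and Rragd at 0.95 lie furthest to the right among these, and Ddit4 at -0.86 and Akt2 at -0.62 furthest to the left.

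None of the 3 genes of the kinase complex passed in colon. Mtor stood at 51.1 and 44.0 CPM in control and at 43.0 and 39.1 CPM in knockout libraries, a log2 difference of -0.21 ± 0.104 (SE, adjusted p = 0.13). Without control library 1 it was -0.11 (adjusted p = 0.56), and without control library 2 it was -0.326 and passed (adjusted p = 0.041). Rptor differed by -0.023 and Mlst8 by -0.105. RHEB genes gave 0.102 for Rheb, the GTPase that switches the kinase on, and -0.194 for its relative Rhebl1.

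At the lysosome, Rragd, encoding a Rag GTPase of the RagC/RagD pair, had 2.92 and 3.57 CPM in control and 7.22 and 5.42 CPM in knockout libraries. Its log2 fold change was 0.95 ± 0.222 (SE, adjusted p = 0.0056). The other 3 Rag genes differed by 0.022 to 0.056, all with an adjusted p of 0.62 or more, and Rragc, the close relative of Rragd, stood at 91.3 to 97.8 CPM over the 4 libraries. Lamtor1, the membrane anchor of Ragulator, fell from 127 and 125 CPM to 87.2 and 80.2 CPM, by 0.59 ± 0.083 (adjusted p = 0.00024). Lamtor4, a small Ragulator subunit, fell from 26.0 and 18.9 CPM to 16.5 and 16.1 CPM, by 0.46 ± 0.15 (adjusted p = 0.030). Control library 1 stood well above control library 2 for Lamtor4, and without it the log2 difference was -0.227 with an adjusted p of 0.33. The call was also lost with DESeq2 (adjusted p = 0.066). Lamtor2 differed by -0.292, Lamtor3 by 0.264 and Lamtor5 by -0.171, and none of them passed.

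Among the carriers of the signal to translation, Rps6kb1, encoding the kinase S6K1, rose from 31.6 and 32.3 CPM to 41.1 and 42.9 CPM, by 0.39 ± 0.094 on the log2 scale (adjusted p = 0.0065). Less than 2 CPM lay between the libraries of each group. The relative Rps6kb2 differed by -0.010. Eif4b, a helper of the translation helicase eIF4A, stood at 445 and 439 CPM in control and 393 and 357 CPM in knockout libraries, a log2 fold change of -0.24 ± 0.08 (adjusted p = 0.033). That call was lost without control library 1 (adjusted p = 0.085), control library 2 (0.061) or knockout library 2 (0.19). Eif4e, encoding the cap-binding protein, differed by 0.174 and did not pass.

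On the PI3K and AKT branch, Akt2 fell from 291 and 284 CPM to 196 and 177 CPM, by 0.62 ± 0.081 (adjusted p = 0.00016). Akt1 fell from 364 and 398 CPM to 286 and 279 CPM, by 0.43 ± 0.08 (adjusted p = 0.0014). Both AKT genes were lower in both knockout libraries than in either control, as were Mtor, Lamtor2 and Lamtor5, which did not pass. Pik3r1, encoding the regulatory subunit p85α, stood at 24.6 and 24.3 CPM in control and 35.4 and 29.9 CPM in knockout libraries, a log2 fold change of 0.41 ± 0.113 (adjusted p = 0.013). Without knockout library 1 it was 0.268 with an adjusted p of 0.13. Pdpk1, encoding the AKT-activating kinase PDK1, differed by 0.135 and Pik3cd by -0.072, and neither passed.

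Of the sestrin genes and Ddit4, which encodes REDD1, 1 of 4 was higher and 1 lower. Sesn1, which binds GATOR2 when leucine is scarce, rose from 7.15 and 7.42 CPM to 15.6 and 15.2 CPM, by 1.08 ± 0.144 on the log2 scale (2.11-fold, adjusted p = 0.00018). Ddit4, a stress-induced activator of the TSC complex, fell from 41.4 and 41.5 CPM to 22.3 and 23.2 CPM, by 0.86 ± 0.098 (1.82-fold, adjusted p = 6.3e-05). For these genes the replicates were within 1 CPM of each other. Sesn2 (-0.286) and Sesn3 (-0.037) did not pass.

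Among the remaining inhibitors, Inpp5d fell from 368 and 347 CPM to 275 and 243 CPM, by 0.47 ± 0.085 (adjusted p = 0.0013). Stk11 fell from 312 and 319 CPM to 231 and 217 CPM, by 0.49 ± 0.077 (adjusted p = 5e-04). Eif4ebp2 fell from 250 and 240 CPM to 197 and 176 CPM, by 0.39 ± 0.082 (adjusted p = 0.003). In all of them both knockout libraries lay under both controls, as they also did for Mtor, Tsc2, Lamtor2, Lamtor5, Sesn2 and Nprl3. None of the latter passed, so such a gap does not set apart the members that passed. The share of all genes with such a gap was not counted. Nprl2, a GATOR1 subunit, stood at 30.1 and 25.1 CPM in control and 22.7 and 20.0 CPM in knockout libraries, a log2 fold change of -0.37 ± 0.125 (adjusted p = 0.037). That call was lost without control library 1 (adjusted p = 0.24) or knockout library 2 (0.14), and with DESeq2 (0.1). Its partners Depdc5 (-0.114) and Nprl3 (-0.082) did not pass, nor did the TSC genes Tsc1 (0.124), Tsc2 (-0.155) and Tbc1d7 (-0.354). Eif4ebp1, encoding the better known 4E-BP, was low in colon, at 7.10 to 8.65 CPM, and differed by 0.019. Prkaa1, the AMPK catalytic subunit, differed by 0.051, and Akt1s1, encoding the inhibitory subunit PRAS40, by -0.248. Deptor, the other inhibitory subunit, had 9 and 1 counts in control and 16 and 17 counts in knockout libraries, and did not pass (adjusted p = 0.087). Its call turned on the controls, since it passed without control library 1 (adjusted p = 0.0092) and not without control library 2 (0.56), and it passed with no filter on low counts (0.029).

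**Figure D2:**
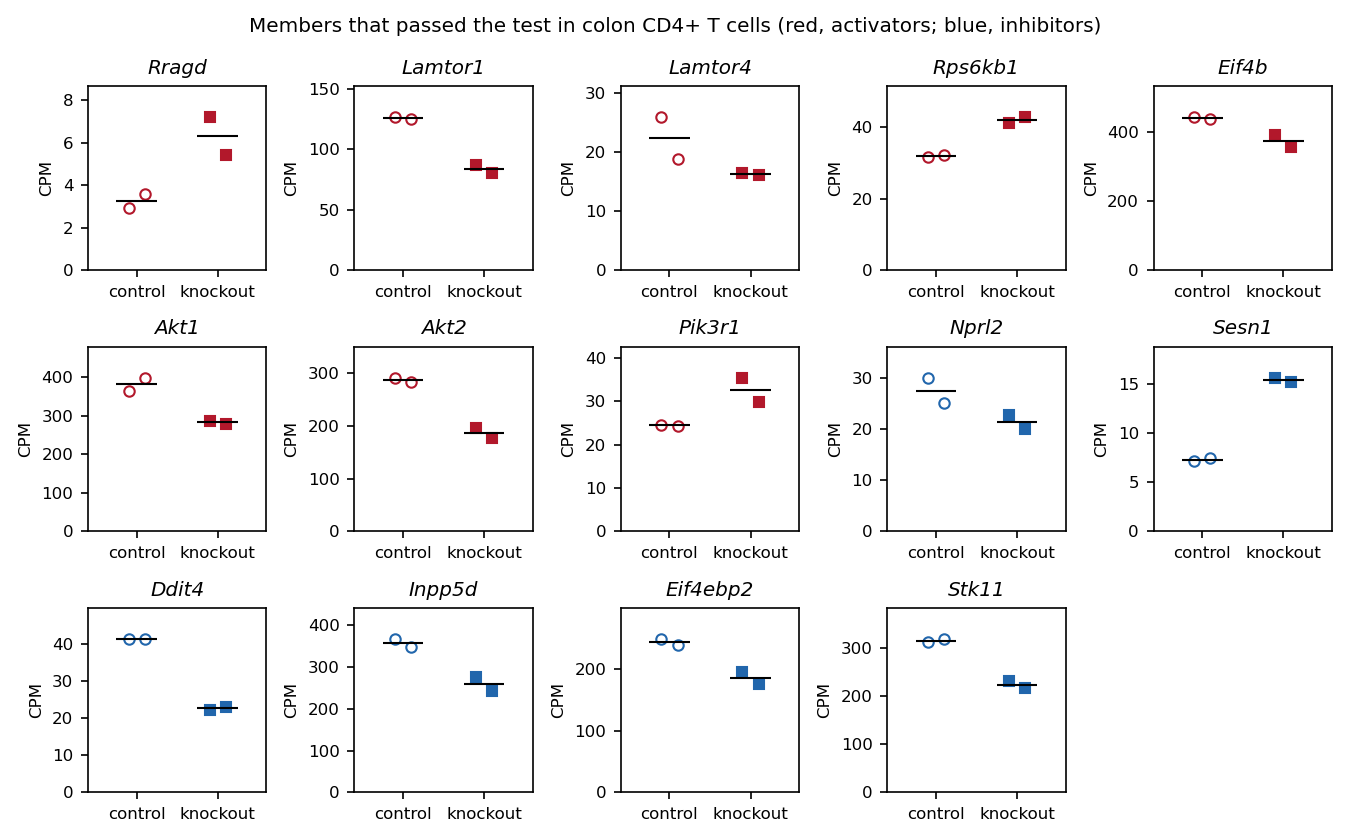
CPM in each colon library (y axis, from 0) for the 14 members that passed the test, with open symbols for control, filled symbols for knockout and a line at each group's mean of 2 libraries. Sesn1, Rragd, Rps6kb1 and Pik3r1 are higher in knockout, and the other 10 are lower.

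Of the 14 members that passed in colon, 9 passed under all 9 alternatives: Rragd, Lamtor1, Rps6kb1, Akt1, Akt2, Sesn1, Ddit4, Inpp5d and Stk11. Scaling by library totals instead of TMM moved the median log2 fold change of all genes from 0.013 to 0.205 and the share of calls that were higher from 49.6% to 77.2%. Over all members, 8 activators were then higher and 3 lower, and 2 inhibitors higher and 3 lower. The 14 kept their direction on that scale, and Lamtor4, Eif4b, Nprl2 and Eif4ebp2 no longer passed (adjusted p of 0.066 to 0.66). Of the members that had not passed, 9 changed sign on it: Rptor, Mlst8, Lamtor5, Rps6kb2, Pik3cd, Tsc2, Depdc5, Nprl3 and Sesn3. Another 6 that had not passed did so on it as higher: Rheb, Rraga, Lamtor3, Eif4e, Pdpk1 and Tsc1.

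Markers of other cells moved with genotype in the colon libraries. T cell markers summed to 11100 and 10800 CPM in control and 8780 and 8490 CPM in knockout libraries, with 10 of 13 lower and 1 higher. Th17 markers summed to 2680 and 2860 CPM in control and 800 and 854 CPM in knockout libraries, with 4 of 5 lower. Epithelial markers summed to 53.1 and 49.8 CPM in control and 136 CPM in each knockout library (9 of 10 higher), and fibroblast markers to 32.6 and 24.2 CPM and 105 and 94.7 CPM (8 of 8 higher). B and plasma cell markers summed to 580 and 568 CPM in control and 2070 and 2250 CPM in knockout libraries (5 of 6 tested higher). Macrophage markers summed to 53.8 and 50.3 CPM in control and 73.6 and 72.3 CPM in knockout libraries (5 of 8 higher), and dendritic cell markers to 336 and 328 CPM and 485 and 510 CPM (4 of 5 tested higher, 1 lower). In control libraries 1 and 2, Ms4a1 of the B cell list was at 0. Endothelial markers stood at 97.5 to 104 CPM in all 4 libraries (1 of 2 tested higher) and neutrophil markers under 1 CPM. The part of these cells in the members' differences was not tested.

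Other genes of the pathway, 65 from lists kept apart from the 40 members, gave 13 higher (21.7%) and 13 lower (21.7%) of 60 tested in colon. These shares were near those of all genes, 19.6% and 19.9%, so that the counts of each list below are a description of which genes passed. Amino acid transporters gave 3 lower of 4, led by Slc7a5 (-0.61, adjusted p = 0.00015) and its partner Slc3a2 (-0.55, adjusted p = 0.00023), which together import leucine. Other mTORC1 substrates gave 4 lower of 6, led by the autophagy factor Atg13 (-0.56, adjusted p = 0.00036) and the RNA polymerase III repressor Maf1 (-0.51, adjusted p = 0.00039). The folliculin list gave 3 higher and 1 lower of 4. Fnip1, a partner of folliculin, was higher by 0.63 (adjusted p = 0.00057). The other PI3K and AKT genes gave 3 higher and 1 lower of 7, with Pik3cg, the PI3Kγ catalytic subunit, at 0.99 (adjusted p = 0.00011) and the adaptor Irs2 at -0.85 (adjusted p = 2.1e-05).

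Phosphatases of the pathway gave 2 higher and 0 lower of 6, led by Inpp4b at 0.52 (adjusted p = 0.00067). The mTORC2 list gave 2 higher and 0 lower of 7, the binding partner Prr5l at 1.53 (adjusted p = 3.5e-05) and the scaffold Rictor at 0.52 (adjusted p = 8e-04). Among cytosolic sensors and KICSTOR, 1 of 7 was higher and 1 lower. Castor2 rose by 0.90 (adjusted p = 0.00059) and its relative, the arginine sensor Castor1, fell by 0.53 (adjusted p = 0.0044). Translation factors gave 1 higher and 2 lower of 6, led by Rps6 (-0.60, adjusted p = 0.00024) and Pdcd4 (0.56, adjusted p = 0.00086). GATOR2 gave 1 lower of 5 (Sec13, -0.41, adjusted p = 0.0021) and the AMPK subunits 1 higher of 8 (Cab39, 0.24, adjusted p = 0.044). All 26 kept their direction under the 9 alternatives, and 20 also passed under each. Of those named here, Cab39 did not.

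To set activators against inhibitors within a library, the median log2(CPM + 0.5) of the 16 inhibitors tested in both data sets was subtracted from that of the 23 activators, a value in which a library's scaling factor cancels but for the added 0.5. It was 0.539 and 0.275 in the control colon libraries and 0.678 and 0.957 in the knockout ones. The activator median thus exceeded the inhibitor median in all 4, and by more in both knockout libraries, with a mean difference of 0.411. With means over members instead of medians that difference was 0.119. The inhibitor median was 5.15 and 5.2 in control and 4.76 and 4.64 in knockout libraries, and the activator medians overlapped between the groups (5.69 and 5.47 against 5.44 and 5.597). In culture the value was 0.604 in the control and 0.5 in the knockout library in the TGF-β mix, and -0.260 and -0.351 in the IL-23 mix. CPM was not divided by exon length here. Which class stood above the other in a library, and by how much, therefore depends on gene length too. These values describe the libraries and carry no test.

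**Figure D3:**
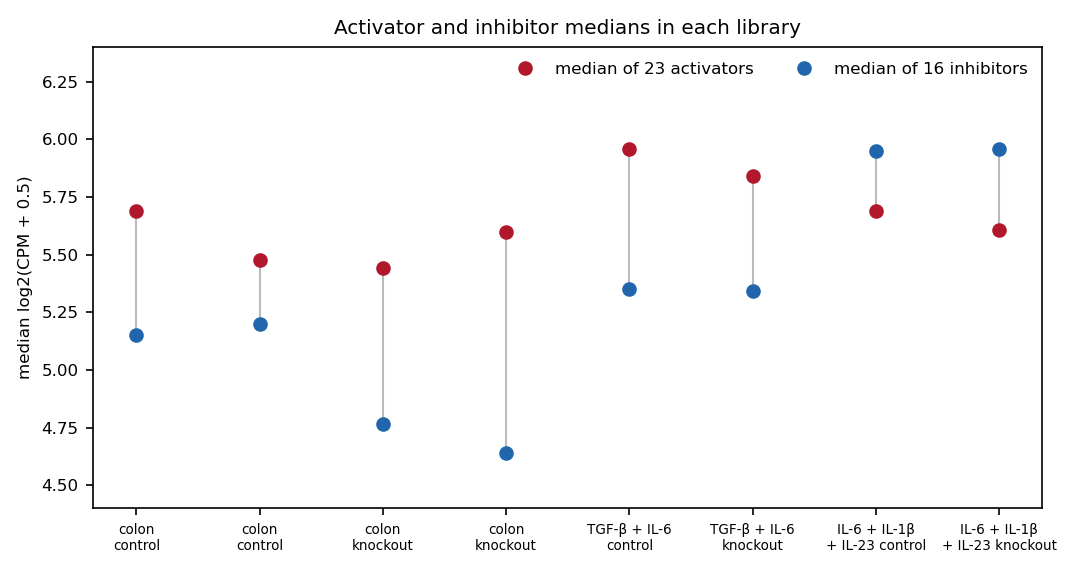
Median log2(CPM + 0.5) of the activators (red) and inhibitors (blue) in each of the 8 libraries, joined by a line. On this scale, which is not divided by exon length, the inhibitor median lies under the activator median in the 4 colon libraries. It also does in the 2 libraries of the TGF-β mix, and it lies above it in the 2 libraries of the IL-23 mix.

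In cultured Th17 cells no member passed for genotype. Of 39 tested (all but Deptor), 0 passed and 1 had an unadjusted p under 0.05, Rhebl1 at 0.35 ± 0.144. DESeq2 called 0 as well. The background was equally low, with 0.0143% of 13983 genes higher and 0.0143% lower. Rhebl1 stood at 9.05 CPM in control and 12.2 CPM in knockout in the TGF-β mix, and at 7.70 and 9.18 CPM in the IL-23 mix. The largest negative value was that of Ddit4, -0.20 ± 0.088, from 24.5 to 19.2 CPM in the TGF-β mix and from 136 to 127 CPM in the IL-23 mix. The genotype difference had the same sign in both mixes for 19 of 40 members. That is no more than signs at random would give, and Deptor was counted though not tested. The fit has 1 library per combination and 1 residual degree of freedom, so that the mixes serve as repeats of each other.

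The knockout effect in colon was then compared with that in culture in a fit of all 8 libraries. It differed for 11 of the 40 members, 4 in the positive direction (beside 7.73% of 14886 genes) and 7 in the negative (beside 9.57%). These were the AKT genes, Lamtor1, Rragd, Rps6kb1, Pik3r1, Sesn1, Sesn2, Ddit4, Inpp5d and Stk11. The share of all genes' calls that were positive was 44.7%, and 80% with library totals, under which the calls of Lamtor1, Akt1, Sesn2, Inpp5d and Stk11 were lost (adjusted p of 0.055 to 0.29) and none of the 11 changed direction. Akt2 differed by -0.60 ± 0.11 (adjusted p = 0.0024), with -0.62 in colon and -0.024 in culture. Sesn1 differed by 0.94 ± 0.185 (adjusted p = 0.0037), with 1.08 in colon and 0.137 in culture. Ddit4 differed by -0.67 ± 0.132 (adjusted p = 0.0039), with -0.86 in colon and -0.197 in culture. Sesn2 did not pass in colon alone (-0.286) or in culture (0.141), and its difference was -0.43 ± 0.13 (adjusted p = 0.034). Rora itself, not a member, differed in the same test by 0.43 ± 0.12 (adjusted p = 0.027). Its RNA was thus less reduced in colon (-0.94) than in culture (-1.38). The culture values are taken over both mixes, and for some of the 11 the mixes had opposite signs. Lamtor1 differed by 0.24 in the TGF-β mix and -0.248 in the IL-23 mix, and Akt1 by 0.216 and -0.022. For Sesn1 the values were -0.013 and 0.26, for Stk11 0.054 and -0.144, and for Rps6kb1 0.061 and -0.036. The others of the 11 had the same sign in both mixes. Akt2 was the only one of the 11 that passed under all 11 alternatives. Leaving out either library in the TGF-β mix removed 9 of the 11 calls (adjusted p of 0.053 to 0.2, Akt2 and Ddit4 kept), and leaving out either library in the IL-23 mix removed 6 (adjusted p of 0.074 to 0.23). Leaving out colon control library 1 removed the calls of Rragd, Rps6kb1, Sesn2 and Inpp5d, control library 2 those of Rps6kb1 and Sesn2, knockout library 1 those of Rragd, Rps6kb1 and Pik3r1, and knockout library 2 those of Rps6kb1, Sesn2 and Inpp5d (adjusted p of 0.051 to 0.14).

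**Figure D4:**
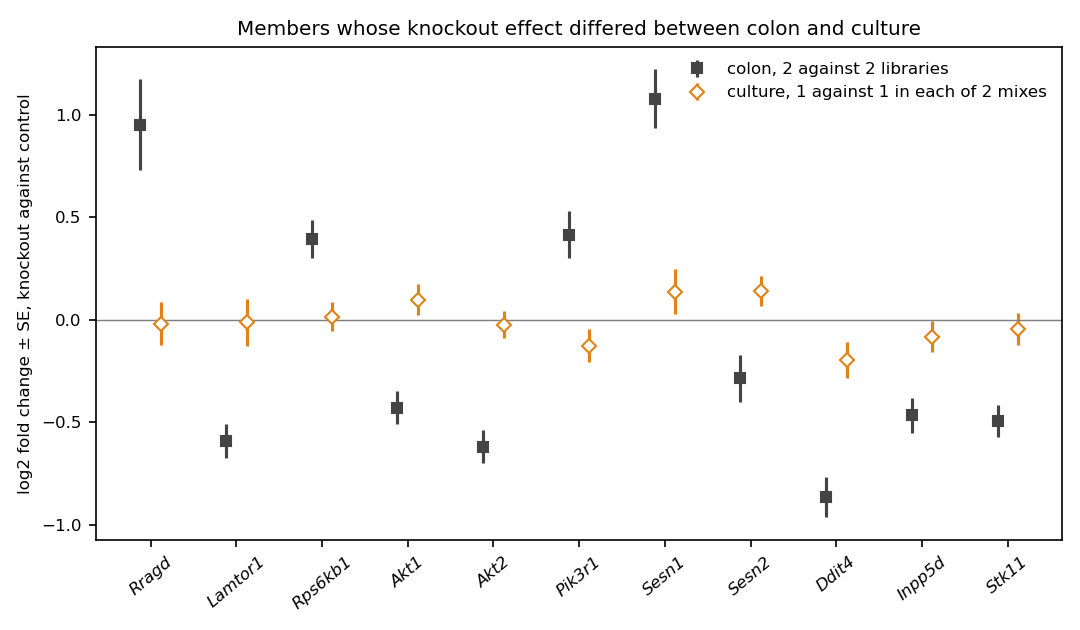
Log2 fold change with SE of knockout against control (y axis) in colon (grey squares) and in culture (open orange diamonds) for the 11 members whose effect differed between them. The culture values, each fitted over both mixes, lie between -0.197 and 0.141, and the colon values between -0.86 and 1.08. For some members the mixes had opposite signs.

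For the cytokine mix, 26 of the 39 members tested passed. Against the TGF-β mix, the IL-23 mix gave 16 of 39 members higher, beside 35.8% of all 13983 genes, and 10 lower, beside 34%. Of 23 activators, 7 were higher and 6 lower, and of 16 inhibitors tested, 9 were higher and 4 lower. These inhibitors include Eif4ebp1 and Eif4ebp2, which encode repressors of eIF4E downstream of the kinase. The median log2 fold change was -0.114 over activators and 0.34 over inhibitors, beside 0.017 over all genes. The sign was the same in control and knockout cells for 34 of 40 members, Deptor included though not tested. The share of all genes with the same sign was not counted. With 35.8% and 34% of all genes passing, such agreement cannot be read as particular to the members. Eif4ebp1 and Ddit4 had the highest fold changes, and the kinase complex genes were all lower. The genotypes serve as repeats of the mix difference here, and what else differed between the cultures cannot be told apart from the mix.

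**Figure D5:**
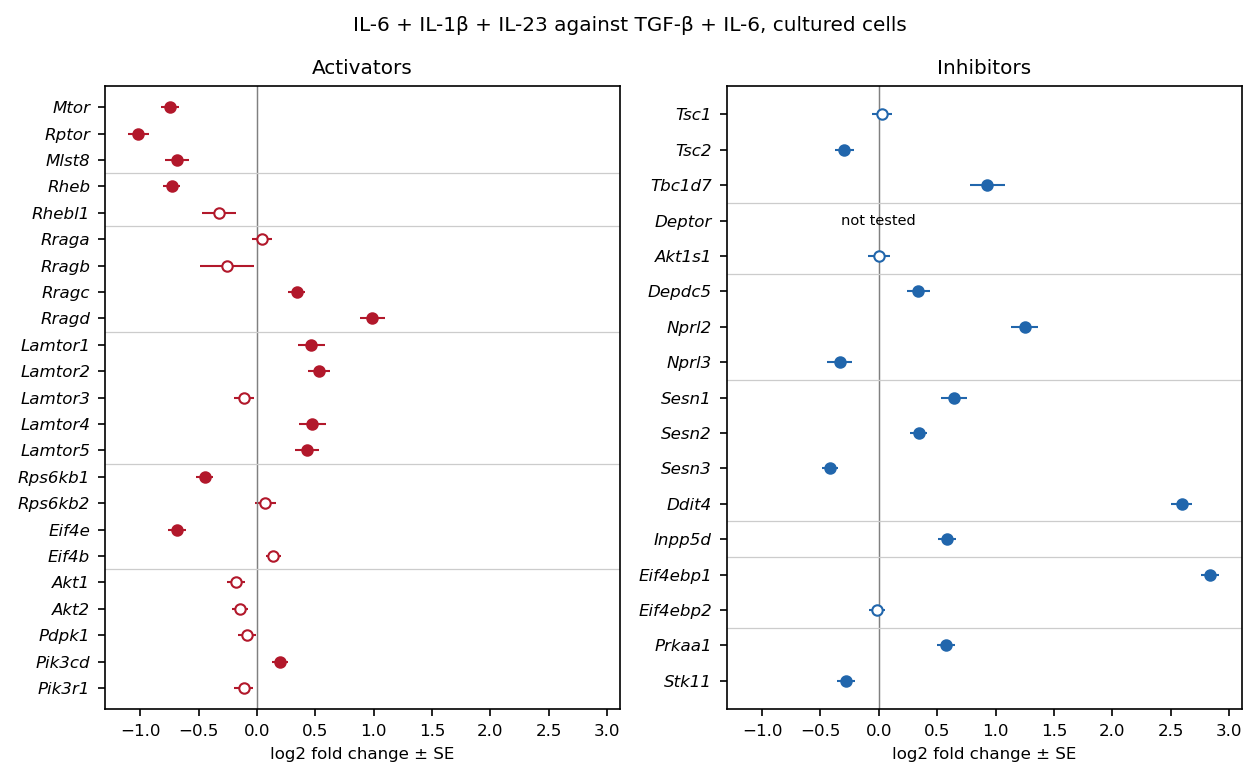
Log2 fold change of each member in the IL-23 mix against the TGF-β mix (x axis, points with SE bars, 2 libraries per mix, 1 of each genotype), arranged as in the plot of colon fold changes. Filled points passed an adjusted p of 0.05. Eif4ebp1 at 2.83 and Ddit4 at 2.59 lie far to the right, and Rptor at -1.02 furthest to the left.

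All 3 genes of the kinase complex were lower in the IL-23 mix. Rptor fell from 61.6 CPM in control and 56.9 CPM in knockout cells to 28.8 and 29.7 CPM, by 1.02 ± 0.088 on the log2 scale (adjusted p = 1.6e-05). Mtor fell from 73.8 and 77.8 CPM to 43.7 and 46.7 CPM, by 0.75 ± 0.077 (adjusted p = 4.4e-05). Both were lower in each genotype. Mlst8 fell from 23.0 and 21.2 CPM to 13.7 CPM in each genotype, by 0.69 ± 0.107 (adjusted p = 0.00052), with the overlap of its exons noted above. Rheb fell from 120 and 125 CPM to 75.3 and 72.3 CPM, by 0.73 ± 0.074 (adjusted p = 3.8e-05). In this branch Rhebl1 alone did not pass (-0.328, adjusted p = 0.071).

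Of the Rag GTPase genes, which bring the complex to the lysosome, 2 of 4 were higher in the IL-23 mix. Rragd rose from 12.2 and 11.9 CPM to 24.0 and 23.8 CPM, by 0.99 ± 0.106 (adjusted p = 5.5e-05), with 0.973 in control and 0.989 in knockout cells. Rragc stood at 92.6 and 93.2 CPM and then at 120 and 115 CPM, a log2 fold change of 0.34 ± 0.07 (adjusted p = 0.0025). Of the 5 Ragulator genes, 4 passed as higher. Lamtor2 rose from 19.9 and 20.4 CPM to 28.8 and 29.3 CPM, by 0.53 ± 0.094 (adjusted p = 0.0011). Lamtor1 went from 42.7 and 50.5 CPM to 69.9 and 58.9 CPM (0.47 ± 0.116, adjusted p = 0.0068), so that its change was 0.709 in control and 0.221 in knockout cells. Lamtor4 went from 11.7 and 12.5 CPM to 16.3 and 17.3 CPM, with a log2 fold change of 0.47 ± 0.115. Lamtor5 went from 22.0 and 21.8 CPM to 32.0 and 27.0 CPM, with a log2 fold change of 0.43 ± 0.101. Lamtor3 (-0.114), Rraga (0.039) and Rragb (-0.258) did not pass.

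Among the effectors, Eif4e fell from 149 and 156 CPM to 99.3 and 90.2 CPM, by 0.69 ± 0.077 (adjusted p = 7e-05). Rps6kb1 fell from 128 and 134 CPM to 97.2 and 94.8 CPM, by 0.45 ± 0.071 (adjusted p = 0.00054). Rps6kb2 (0.072) and Eif4b (0.140) did not pass. Of the PI3K and AKT branch, Pik3cd passed, from 267 and 259 CPM to 291 and 313 CPM (0.20 ± 0.07, adjusted p = 0.032), and Akt1, Akt2, Pdpk1 and Pik3r1 differed by -0.177 to -0.087 without passing.

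The inhibitor Eif4ebp1, which blocks eIF4E until mTORC1 phosphorylates it, rose from 37.4 and 38.4 CPM to 279 and 262 CPM, by 2.83 ± 0.077 on the log2 scale (7.13-fold, adjusted p = 5.4e-08). Ddit4 rose from 24.5 and 19.2 CPM to 136 and 127 CPM, by 2.59 ± 0.09 (6.04-fold, adjusted p = 1.5e-07). In both, each library of one mix lay far from each library of the other. Eif4ebp2 stood at 231 to 250 CPM over the 4 libraries (-0.013) and did not pass. Per kb of exon, Eif4ebp1 was below Eif4ebp2 in the TGF-β mix (17.0 and 17.5 against 42.3 and 41.5 CPM per kb) and above it in the IL-23 mix (127 and 119 against 43.2 and 39.9 CPM per kb). In colon control cells the means were 3.54 CPM per kb for Eif4ebp1 and 42.4 for Eif4ebp2.

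GATOR1 genes split. Nprl2 rose from 9.997 and 11.97 CPM to 26.1 and 26.0 CPM, by 1.25 ± 0.116 (adjusted p = 2.2e-05). Depdc5 stood at 28.6 and 25.2 CPM and then at 33.2 and 34.7 CPM (0.34 ± 0.099, adjusted p = 0.015). Nprl3 stood at 18.7 and 19.6 CPM and then at 14.5 and 15.8 CPM (-0.34 ± 0.107, adjusted p = 0.021). The TSC genes split as well. Tbc1d7, the TSC subunit that steadies the complex, rose from 5.88 and 5.58 CPM to 11.2 and 10.7 CPM, by 0.93 ± 0.151 (adjusted p = 0.00065). Tsc2, the GTPase-activating subunit, stood at 55.4 and 62.9 CPM and then at 46.9 and 49.2 CPM (-0.30 ± 0.081, adjusted p = 0.011), and Tsc1 differed by 0.031.

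Sesn1 rose from 16.2 and 16.1 CPM to 23.0 and 27.5 CPM, by 0.64 ± 0.11 (adjusted p = 0.00089). Sesn2 stood at 75.8 and 80.2 CPM and then at 92.3 and 106 CPM (0.34 ± 0.074, adjusted p = 0.0031). Sesn3 fell from 269 and 278 CPM to 193 and 216 CPM, by 0.42 ± 0.068 (adjusted p = 0.00066). The sestrin genes thus passed in both directions. Inpp5d rose from 85.8 and 76.7 CPM to 122 and 121 CPM, by 0.58 ± 0.075 (adjusted p = 0.00016). Prkaa1 rose from 52.8 and 52.5 CPM to 80.0 and 77.2 CPM, by 0.58 ± 0.076 (adjusted p = 0.00018). Stk11, the kinase upstream of it, stood at 99.5 and 103 CPM and then at 87.8 and 79.4 CPM (-0.28 ± 0.078, adjusted p = 0.012). Akt1s1 differed by -0.001, and Deptor had 5 to 14 counts in any culture library.

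Of the 26 members that passed for the mix, 16 passed under all 8 alternatives. The calls of Rragc, Lamtor1, Lamtor4, Lamtor5, Pik3cd, Tsc2, Depdc5, Nprl3, Sesn2 and Stk11 were lost in 1 or more, with adjusted p between 0.052 and 0.44 and no change of direction. Leaving out any 1 of the 4 culture libraries, in a fit that assumes the lone library to vary like the others, removed 6 or 7 of them. Marker sums of other cells differed between the mixes too. The fibroblast list summed to 2.02 and 2.38 CPM in the TGF-β mix and to 446 and 410 CPM in the IL-23 mix, with 3 of 3 tested higher. Of this, Lum went from 1.33 and 1.57 CPM to 422 and 387 CPM and Dcn from 0.0633 and 0.125 CPM to 22.4 and 22.3 CPM, while Col3a1 and Mmp2 were at 0 in all 4. Macrophage markers summed to 2.21 and 2.51 CPM and then to 30.8 and 27.8 CPM, with 4 to 6 of 8 at 0, and dendritic cell markers to 48.7 and 37.6 CPM and then to 308 and 285 CPM. The 3 neutrophil markers were at 0. The part of these genes' source in the mix result was not tested.

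Of 61 other pathway genes tested, 23 (37.7%) were higher and 29 (47.5%) lower in the IL-23 mix, beside 35.8% and 34% of all genes. The higher share was near that of all genes and the lower share above it, with no test of that difference. The cytosolic sensors and KICSTOR gave 4 higher and 3 lower of 7, led by Castor1 (3.04, adjusted p = 1.4e-07) and Castor2 (1.57, adjusted p = 1.7e-06). GATOR2, the target of those sensors, gave 1 higher and 4 lower of 5, led by Mios (-0.74, adjusted p = 0.00011) and Sec13 (-0.60, adjusted p = 0.00012). The mTORC2 and kinase assembly list gave 5 lower and 0 higher of 7, led by Tti1 (-1.48, adjusted p = 2.3e-06), a chaperone subunit for mTOR, and Prr5l (-2.12, adjusted p = 7.4e-06). The other PI3K and AKT genes gave 5 higher and 3 lower of 8, led by Pik3cg (2.24, adjusted p = 3.1e-07) and Irs2 (1.69, adjusted p = 9.6e-07).

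Other mTORC1 substrates gave 3 higher and 2 lower of 6, led by Lpin1 (2.33, adjusted p = 7.7e-07) and Maf1 (0.98, adjusted p = 7.6e-06). Translation factors gave 3 higher and 3 lower of 6, led by the scaffold Eif4g1 (-0.99, adjusted p = 3.9e-06) and the elongation factor kinase Eef2k (1.75, adjusted p = 1.1e-05). The amino acid transporters gave 3 lower of 4, led by the glutamine carrier Slc1a5 (-1.19, adjusted p = 1.4e-06) and Slc7a5 (-0.48, adjusted p = 0.00062). Phosphatases gave 2 higher and 2 lower of 6, led by Inpp4b (-1.72, adjusted p = 3.1e-07) and Phlpp2 (-1.15, adjusted p = 1.4e-05). The folliculin list gave 1 higher and 1 lower of 4, the lysosomal arginine sensor Slc38a9 (0.95, adjusted p = 0.00021) and Fnip2 (-1.49, adjusted p = 2.9e-05). The AMPK subunits gave 4 higher and 3 lower of 8, led by Prkab2 (-0.81, adjusted p = 0.00018) and Cab39l (0.55, adjusted p = 0.00032). Of these 52 calls, 38 were kept under all 8 alternatives, those of all genes named in these lists among them, and none changed direction.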

How the data were processed

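Gene counts were deposited by the authors as raw, whole-number counts per gene and library, and were used as deposited. Per the submitters' processing notes, Trim Galore, Bowtie2, featureCounts, edgeR, DESeq2 and build mm10 were used, with no roles or versions. The strand setting and read type are not given in the sources used here. Colon and culture tables were joined by unique symbol (53657 genes). Tests were edgeR 4.0.16 (R 4.3.3) quasi-likelihood fits (TMM scaling, genes kept by filterByExpr), with Benjamini-Hochberg adjusted p over all genes tested and a threshold of 0.05. Colon (2 against 2 libraries) was fitted alone, culture with genotype and mix terms, and the difference of knockout effects on all 8 libraries. Alternatives were library totals, no filter, DESeq2 1.42.0, the 8-library fit, a replicate block and each library left out. On simulated data with 200 changed genes, log2 changes of 1 were recovered for 99.5% of them (colon, 9738 genes; culture, 10510 genes, both terms) and 94% (difference of effects, 10353 genes). False calls numbered 5 (colon), 8 (genotype in culture), 11 (mix) and 10 (difference of effects). The simulation left out genes with low counts and gave all genes a common spread. It does not give the recovery of smaller changes, which most members had, or of members with few counts. The 40 members, the pathway and marker lists and the tests were chosen with earlier results of these data known. All members are named, with values in each library where they passed, and at most 2 genes per pathway list by smallest p. Exon lengths and overlaps come from GENCODE M21 and promoters from RefSeq. At 13176752 to 15922696 counts per library, genes with few counts, such as Deptor, are imprecise.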

Additional observations from a re-analysis of the deposited data

Results flagged for a closer look

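The knockout effect of 11 members differed between colon and culture in the test of the difference itself (edgeR quasi-likelihood, Benjamini-Hochberg adjustment over 14886 genes). On the log2 scale, the effect in colon minus that in culture was 0.96 for Rragd (adjusted p = 0.016), -0.58 for Lamtor1 (0.013), 0.38 for Rps6kb1 (0.039) and -0.53 for Akt1 (0.0072). It was -0.6 for Akt2 (adjusted p = 0.0024), 0.54 for Pik3r1 (0.02), 0.94 for Sesn1 (0.0037) and -0.43 for Sesn2 (0.034). It was -0.67 for Ddit4 (adjusted p = 0.0039), -0.39 for Inpp5d (0.038) and -0.46 for Stk11 (0.014). Of all genes tested, 7.73% passed in the positive and 9.57% in the negative direction. Only the call of Akt2 was kept under all 11 alternatives. Colon and culture differed in tissue, stimulation, time, genes counted and the size of the fall in Rora RNA, which cannot be told apart here.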

How the results depend on the processing

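In colon, library totals in place of TMM gave 8 activators higher and 3 lower, 2 inhibitors higher and 3 lower, and medians of 0.169 (activators) and 0.038 (inhibitors). With them 9 members that had not passed changed sign, to 0.169 (Rptor), 0.087 (Mlst8), 0.022 (Lamtor5), 0.183 (Rps6kb2), 0.121 (Pik3cd), 0.038 (Tsc2), 0.078 (Depdc5), 0.11 (Nprl3) and 0.156 (Sesn3). No filter and the replicate block each gave 2 inhibitors higher. The replicate numbers of the colon groups were not established as pairs (r = 0.168 across 13101 genes, from 2 pairs), and the block raised the calls over all genes from 5173 to 6230 and brought Mtor (-0.21, adjusted p = 0.049), Lamtor2, Lamtor3, Deptor and Sesn2 past the threshold, without a pairing known from the design. Leaving out each colon library gave 3 to 5 activators lower, 1 to 2 inhibitors higher, activator medians of -0.083 to -0.001 and inhibitor medians of -0.264 to -0.091. It turned the sign of 8 members that had not passed, with ranges of -0.401 to 0.103 (Depdc5), -0.149 to 0.144 (Eif4ebp1), -0.072 to 0.155 (Prkaa1), -0.028 to 0.19 (Rheb), -0.576 to 0.092 (Rhebl1), -0.084 to 0.018 (Rptor), -0.117 to 0.242 (Rragb) and -0.032 to 0.047 (Rragc). Members that had not passed did so without control library 1 (Deptor; Akt1s1, -0.375), control library 2 (Mtor, -0.326) or knockout library 1 (Lamtor3, 0.353; Eif4e, 0.287; Akt1s1, -0.414), and in the 8-library fit (Lamtor2, -0.297; Sesn2, -0.293). DESeq2 lost Lamtor4 and Nprl2.

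For the mix, DESeq2 called 4 activators higher and 1 inhibitor lower, and leaving out each culture library 2 to 5 and 1 to 3. For the difference between colon and culture, library totals called 2 inhibitors, DESeq2 3 activators, and leaving out each library 1 to 6 activators and 1 to 6 inhibitors. Calls over all genes were then 743 to 2452, 1766 with DESeq2, beside 2575. Genotype in culture gave 0 members under all 8 alternatives, and 0 to 18 calls over all genes, beside 4 (9 with library totals, 0 with no filter, 7 with DESeq2, 15 in the 8-library fit). With means over members the difference between knockout and control colon libraries in activator minus inhibitor level was 0.119. The cause of these shifts was not tested. With 1 or 2 libraries per group, small changes of single members may go uncalled.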
